A study of Mus musculus with 9 samples.

Results

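Transcripts of 10 enzymes of glycolysis were followed in mouse kidney cortex: the hexokinases Hk1 and Hk2, the isomerase Gpi1, the phosphofructokinases Pfkl, Pfkm and Pfkp, the aldolase Aldoa, the kinase Pgk1 and the lactate dehydrogenases Ldha and Ldhb. The set was chosen by gene name, and all 10 were found among the 23420 rows of the deposited gene table. RNA came from about 50 mg of kidney cortex of male C57/BL6 mice on chow with a 12 h light and dark cycle. The fed group, with free access to food, has 5 libraries (Fed 1 to 5), and the group without food for 16 h has 4 (Fasted 1 to 4). The groups share strain, sex and diet, and the labels name no genetic change, batch or age. The libraries carry separate numbers in the labels, which do not state outright that each is 1 animal, so p-values measure the spread between these libraries.

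Glycolysis splits glucose into pyruvate. Hexokinase traps glucose as glucose 6-phosphate, phosphofructokinase makes the committed and most closely regulated step, aldolase cleaves the six-carbon sugar, phosphoglycerate kinase makes ATP, and lactate dehydrogenase interconverts pyruvate and lactate. Several steps are carried by isoforms from different genes. Proximal tubules, which fill most of the cortex, run mainly on fatty acids and lactate and also make glucose, while the more distal segments rely more on glycolysis.

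Among the 10 enzymes the lactate dehydrogenase subunit Ldhb fell by 20.9% in fasted cortex, with a 95% interval of the change from -29.8% to -10.7%, and none rose. Of all tested genes 5.25% were called lower and 5.72% higher at an adjusted p under 0.05. The Ldhb call was lost in 5 of 22 alternative settings. In relative terms the lactate dehydrogenase transcripts moved toward Ldha and the phosphofructokinase transcripts moved from Pfkm toward Pfkl. The call of each of these ratios was lost in 12 of 15 alternative settings, which include subsets of libraries where the smallest possible p is higher. The direction of both ratio differences held in all 15. The hexokinases, Gpi1, Pfkl, Pfkp, Aldoa, Pgk1 and Ldha did not pass the test for single genes, nor did Pfkm, which came near the threshold. Apart from Pfkm their log2 changes lay between -0.25 and 0.09.

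The promoter windows of the lactate dehydrogenase pair are shown because the ratio of these genes differed between the groups. The 250 bases before a RefSeq transcript start (GRCm38.p6) were searched on both strands for ACGTG and for CACGTG, an E-box that contains those letters. ACGTG is known as a form of the core of the element bound by hypoxia-inducible factors, and other forms were not searched for. Capitals mark ACGTG, or CACGT where it lies on the opposite strand. The Ldha window is chr7:46845554-46845803 on the plus strand and the Ldhb window is chr6:142507958-142508207 on the minus strand.
Ldha: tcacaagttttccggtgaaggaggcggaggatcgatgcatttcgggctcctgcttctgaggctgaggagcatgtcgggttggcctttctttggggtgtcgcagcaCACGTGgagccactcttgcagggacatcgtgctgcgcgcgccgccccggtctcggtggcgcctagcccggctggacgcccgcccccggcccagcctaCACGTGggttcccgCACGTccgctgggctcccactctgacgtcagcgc
Ldhb: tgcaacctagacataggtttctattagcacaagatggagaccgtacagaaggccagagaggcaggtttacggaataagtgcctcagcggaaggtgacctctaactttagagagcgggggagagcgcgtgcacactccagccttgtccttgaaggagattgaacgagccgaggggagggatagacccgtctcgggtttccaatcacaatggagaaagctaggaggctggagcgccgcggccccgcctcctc
The Ldha window held 3 separate ACGTG sites, of which 2 read CACGTG, and the Ldhb window held 0 ACGTG sites. A further Ldha window, at chr7:46846832-46847081, also held 0. Windows were found for all 10 enzymes, 17 in all, and 7 windows of 5 enzymes (Hk2, Pfkm, Aldoa, Pgk1 and Ldha) held ACGTG. The Aldoa windows with a match overlap and hold the same site, so the 7 windows are not all separate. Of all 32851 windows in the table, 16.6% held ACGTG and 6.02% held CACGTG. These matches describe letters only, and no binding was measured.

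Values are the authors' normalized counts, which are read counts divided by a size factor for each library. Recovered depth was 19638174 to 32469467 reads in the fed and 18902645 to 27186745 in the fasted libraries, so that 1 read is worth 0.744 to 1.32 normalized counts. The ribosomal entry Rn45s took 5.53% of the reads in Fed 3 and 2.36% in Fasted 1, against 0.513% to 1.38% in the other 7 libraries. Changes were tested with limma on log2(normalized count + 1) over the 15098 genes that averaged 10 or more across the libraries, and called at an adjusted p under 0.05 over all of them. At this threshold 5.72% of tested genes were higher and 5.25% lower in the fasted group. Against this background 1 of the 10 enzymes was called lower and 0 higher. At an unadjusted p under 0.05 there were 2, Ldhb and Pfkm, both lower, while 26.8% of all tested genes met that mark in either direction. The median log2 change of the 10 was -0.07, against 0.00 over all tested genes, with 7 estimates below 0 and 3 above.

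**Figure D1:**
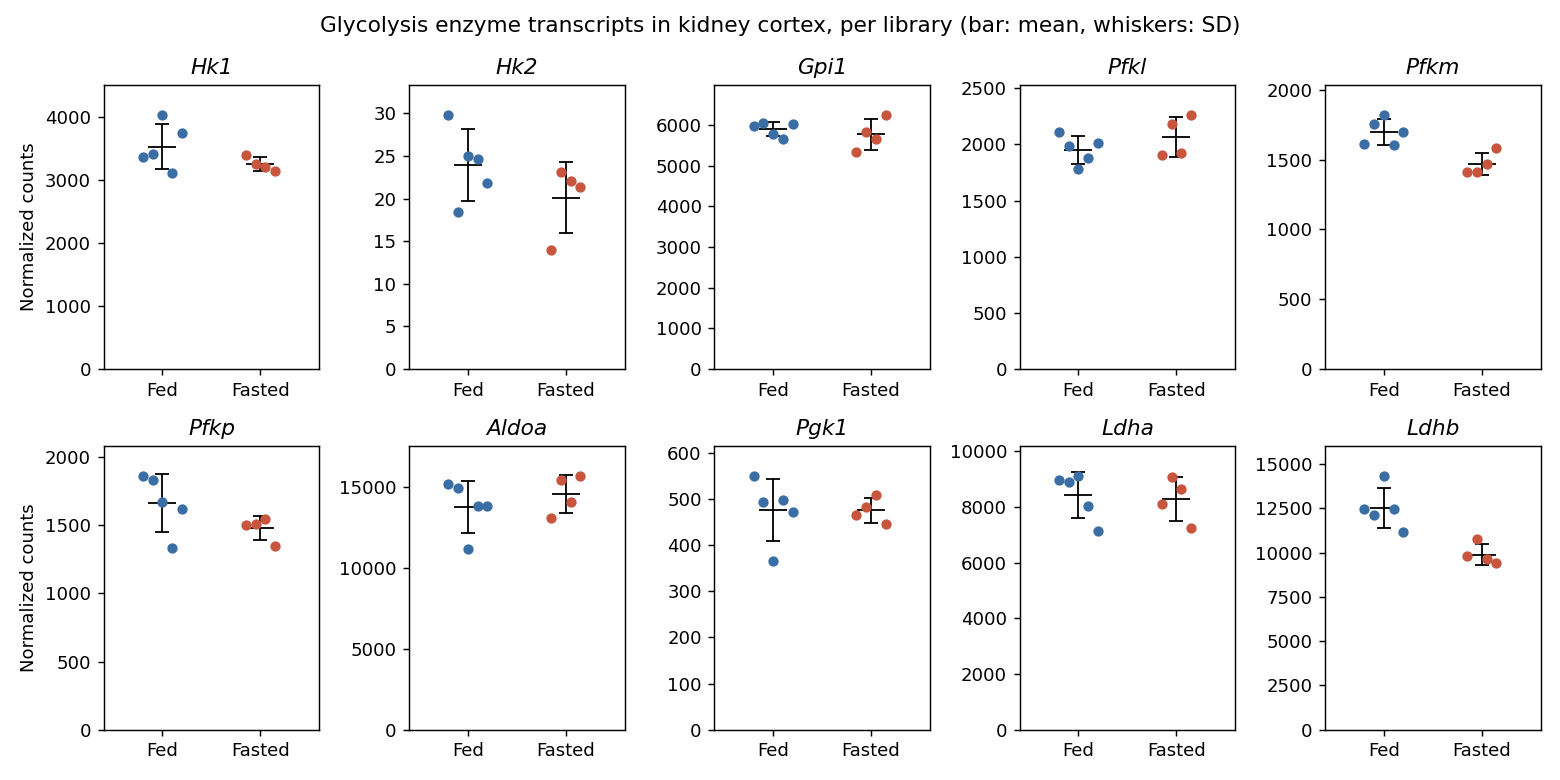
Normalized counts (y axes, each from 0) of the 10 enzymes in the 5 fed (blue) and 4 fasted (red) libraries, with 1 point per library, the mean as a bar and the SD as whiskers. The 4 fasted points lie below all fed points for Pfkm and for Ldhb, while the points of the other 8 enzymes overlap.

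Hk1, the ubiquitous hexokinase that binds mitochondria, had 3361, 3407, 4024, 3116 and 3740 normalized counts in Fed 1 to 5 and 3400, 3256, 3199 and 3141 in Fasted 1 to 4. The fasted values lay within the fed range. Its mean was 3530 ± 355 (SD, n = 5) in fed and 3249 ± 111 (SD, n = 4) in fasted cortex, a log2 change of -0.11 (SE 0.076, limma adjusted p = 0.37). Hk2, the insulin- and hypoxia-responsive hexokinase of muscle and fat, had 29.8, 18.4, 25.0, 24.7 and 21.9 in the fed and 13.95, 23.1, 22.1 and 21.3 in the fasted libraries. It rested on 15 to 40 reads per library, and Fasted 1 was lowest while the other 3 fasted values lay among the fed ones. The log2 change of Hk2 was -0.25 with an interval from -0.73 to 0.24 (limma adjusted p = 0.51).

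Hk1 supplied nearly all of the hexokinase transcripts counted here. Normalized counts were divided by gene length to compare isoforms, with 2 lengths in turn, that of the longest coding transcript and that of all exons merged. Per kb of the longest coding transcript, Hk2 made up 0.53% ± 0.11 (SD, n = 5) of the Hk1 and Hk2 total in fed and 0.48% ± 0.11 (SD, n = 4) in fasted cortex. Per kb of merged exons these shares were 0.97% and 0.88%. The log2 ratio of Hk2 to Hk1 was -7.16 ± 0.29 in fed and -7.29 ± 0.36 in fasted libraries, a difference of -0.13 (exact two-sided permutation test, p = 0.603, adjusted p = 0.667 over 5 isoform pairs). That difference turned to 0.046 without Fasted 1, whose ratio was -7.83 while the other 3 fasted libraries lay between -7.14 and -7.08. Of the related genes, Hkdc1 averaged 88.9 normalized counts in fed and 89.2 in fasted cortex, and Hk3 14.6 and 21.9, and neither passed the test.

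Gpi1, which turns glucose 6-phosphate into fructose 6-phosphate, had 5979, 6042, 5788, 5664 and 6026 normalized counts in Fed 1 to 5 and 5345, 5844, 5658 and 6241 in Fasted 1 to 4. The lowest and the highest of the 9 values were both in the fasted group. Its log2 change was -0.03 with the narrowest interval among the 10 enzymes, from -0.17 to 0.10 (limma adjusted p = 0.77).

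None of the phosphofructokinase isoforms passed the test for single genes, with estimates below 0 for Pfkm and Pfkp and above 0 for Pfkl. Pfkm, the muscle-type isoform, had 1614, 1757, 1818, 1607 and 1702 normalized counts in Fed 1 to 5 and 1410, 1413, 1471 and 1584 in Fasted 1 to 4. Every fasted value lay below every fed value, with Fasted 4 the highest fasted value and Fed 4 the lowest fed one. Values of this kind, all fasted below all fed, were found for 6.64% of tested genes, and the reverse for 7.62%; among the 10 enzymes there were 2 of the first kind and 0 of the second. The Pfkm mean went from 1700 ± 91.2 to 1469 ± 81.2, a log2 change of -0.21 (SE 0.064, 95% interval -0.35 to -0.07), which missed the threshold (limma adjusted p = 0.058). It passed in 3 of 22 alternative settings, with DESeq2 (adjusted p = 0.027), voom with quality weights (0.042) and a mean of at least 100 (0.049).

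Pfkl, the liver-type isoform, had 2106, 1985, 1785, 1877 and 2009 normalized counts in Fed 1 to 5 and 1909, 2184, 1925 and 2259 in Fasted 1 to 4. The groups overlapped, with the 2 highest values in the fasted group, and the log2 change was 0.08 (SE 0.074, limma adjusted p = 0.52). Pfkp, the platelet-type isoform, had 1861, 1831, 1671, 1335 and 1621 in the fed and 1500, 1512, 1549 and 1349 in the fasted libraries. Its 2 lowest values were in Fed 4 and Fasted 4. The log2 change of Pfkp was -0.16 (SE 0.096, limma adjusted p = 0.31), and it depended on which fed libraries entered. With Fed 1 to 3, whose labels are numbered below those of the fasted libraries, it was -0.28 (limma adjusted p = 0.047). With Fed 4 and 5, numbered above them, it was 0.0043 (adjusted p = 0.99). Without Fed 4 alone it was -0.24 (adjusted p = 0.066), and without Fed 5 alone -0.17 (adjusted p = 0.32).

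Within a library, scaling and depth act on both isoforms alike, and the ratio of isoforms can be tested with no gene length. The log2 ratio of Pfkm to Pfkl was -0.38, -0.18, 0.03, -0.22 and -0.24 in Fed 1 to 5 and -0.44, -0.63, -0.39 and -0.51 in Fasted 1 to 4. Fed 1 and Fasted 3 almost met, but the groups did not overlap, and the mean fell from -0.20 ± 0.15 (SD, n = 5) to -0.49 ± 0.10 (SD, n = 4). The difference of -0.29 had an exact two-sided permutation p = 0.0159, the smallest that 126 regroupings can give (adjusted p = 0.0397 over 5 pairs). The ratio of Pfkp to Pfkl differed by -0.25 (exact permutation p = 0.0794, adjusted p = 0.132), and that of Pfkp to Pfkm by 0.05 (exact permutation p = 0.667), both with overlapping groups.

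Per kb of the longest coding transcript, Pfkl went from 34.6% ± 1.95 to 39.0% ± 2.08 of the phosphofructokinase total, with ranges of 31.6% to 36.4% in fed and 36.8% to 40.9% in fasted libraries. Pfkm went from 39.0% ± 2.29 to 35.9% ± 1.33, and its group ranges overlapped. Pfkp took 26.4% and 25.1%. Which isoform leads depends on the length used: per kb of merged exons Pfkm stayed first, at 55.0% in fed and 51.1% in fasted cortex, and Pfkp, whose merged exons are long, took 13.4% and 12.9%. The summed level per kb of the longest transcripts was 1515 ± 80.0 in fed and 1422 ± 50.7 in fasted cortex.

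**Figure D2:**
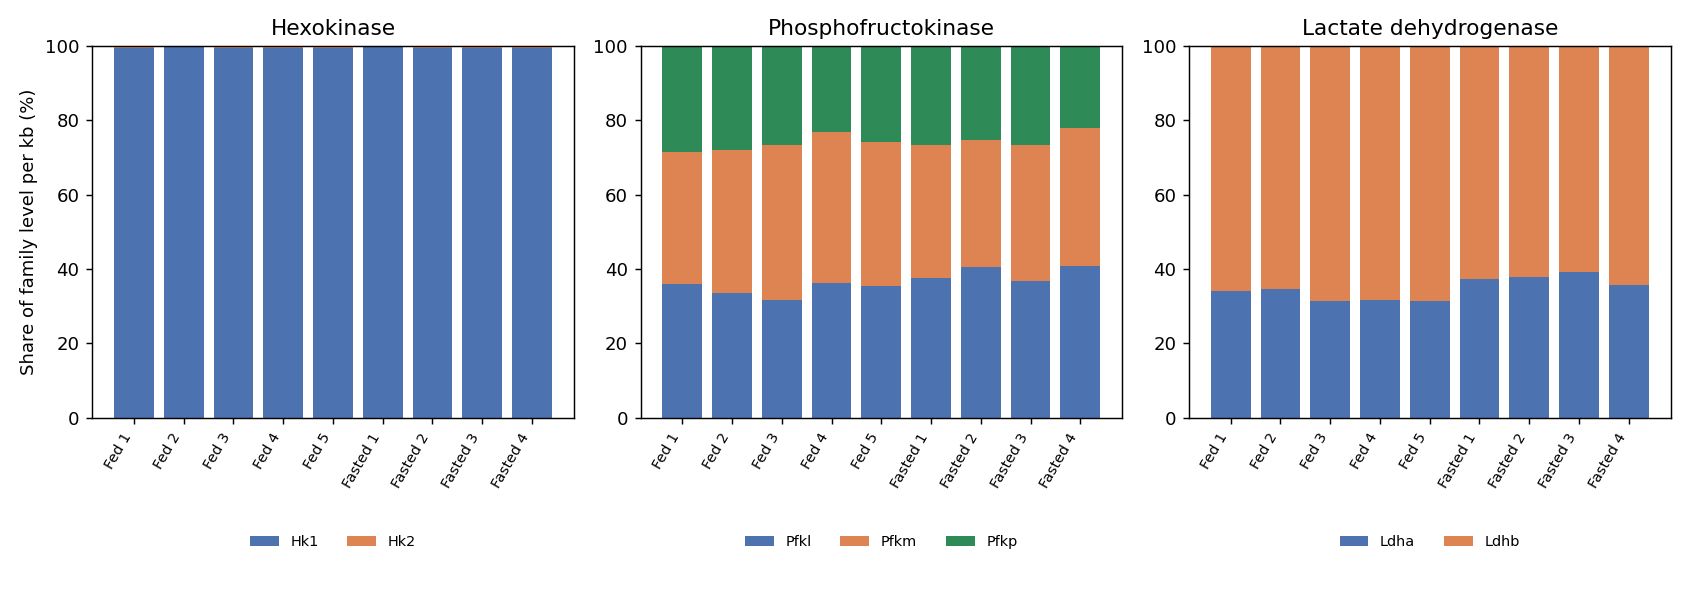
Share of each isoform (y axis, percent) in the summed level per kb of its enzyme family, for each of the 9 libraries (x axis), with normalized counts divided by the length of the longest coding transcript. Hk1 fills the hexokinase bars apart from less than 1%, the Pfkl segment is at 36.8% or above in the fasted libraries and at 36.4% or below in the fed ones, and the Ldhb segment averages 67.4% in fed and 62.5% in fasted libraries.

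Aldoa, the widespread aldolase, had 15184, 14937, 11150, 13822 and 13822 normalized counts in Fed 1 to 5 and 13115, 15437, 14089 and 15690 in Fasted 1 to 4. Apart from Fed 3, the lowest, both groups covered about the same range, and the log2 change was 0.09 (SE 0.099, limma adjusted p = 0.62). Without Fed 3 it was 0.01.

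Pgk1 had 549, 493, 366, 497 and 472 normalized counts in Fed 1 to 5 and 464, 482, 508 and 445 in Fasted 1 to 4. Fed 1 was highest and Fed 3 lowest, with all fasted values between them. The group means were 476 ± 67.6 and 475 ± 26.8, and the log2 change was 0.01 (95% interval -0.23 to 0.25, limma adjusted p = 0.97). Pgk1 is the enzyme of the 10 whose level is least certain, since 68.0% of the 50-base stretches of its longest coding transcript also occur in other annotated genes, all 5 of them pseudogenes. Reads from such stretches cannot be assigned to 1 gene, and how the authors treated them is not given in the sources used here.

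The same holds to a lesser degree for others. The share of 50-base stretches found elsewhere was 27.0% for Ldhb (1 pseudogene), 19.3% for Gpi1, 16.6% for Ldha (14 pseudogenes) and 13.5% for Aldoa, 0.054% for Pfkl, and 0 for Hk1, Hk2, Pfkm and Pfkp. Among the neighbouring steps the share was 82.5% for Gapdh, whose values ran only from 180.2 to 349.6, and 72.2% for Eno1, listed at 0 to 4.65. Levels of genes with such copies are uncertain, and the read length is not given in the sources used here.

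Ldha and Ldhb encode the subunits that mix into the tetramers of lactate dehydrogenase. Ldhb, the heart-type subunit common in aerobic tissue, had 12469, 12116, 14318, 12481 and 11187 normalized counts in Fed 1 to 5 and 9788, 10741, 9625 and 9383 in Fasted 1 to 4. Fed 3 was highest, and every fasted value lay below the lowest fed one, Fed 5. The mean fell from 12514 ± 1138 (SD, n = 5) to 9884 ± 595 (SD, n = 4), a log2 change of -0.34 (SE 0.079, 95% interval -0.51 to -0.16, limma adjusted p = 0.0211). The call was lost without Fasted 1 (adjusted p = 0.058), Fasted 3 (0.061) or Fasted 4 (0.073), without Fed 3 and Fasted 1 together (0.065) and with Fed 4 and 5 as the fed group (0.22). Over all 22 alternatives the log2 change of Ldhb stayed between -0.39 and -0.26.

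Ldha, the muscle-type subunit, had 8968, 8903, 9102, 8036 and 7143 normalized counts in Fed 1 to 5 and 8117, 9066, 8647 and 7254 in Fasted 1 to 4. The fasted values lay inside the fed range, and the log2 change was -0.03 (SE 0.092, 95% interval -0.23 to 0.17, limma adjusted p = 0.89). The difference between the subunits was tested directly through their ratio. The log2 ratio of Ldha to Ldhb was -0.48, -0.44, -0.65, -0.64 and -0.65 in Fed 1 to 5 and -0.27, -0.24, -0.15 and -0.37 in Fasted 1 to 4. The groups did not overlap, and the mean went from -0.57 ± 0.10 to -0.26 ± 0.089, a difference of 0.31 (exact two-sided permutation p = 0.0159, again the smallest possible, adjusted p = 0.0397 over 5 pairs).

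Both ratio calls used all 9 libraries. Each ratio holds a gene, Ldhb or Pfkm, whose own values did not overlap between the groups. Of single tested genes, 6.64% had all fasted values below all fed ones and 7.62% the reverse. The share of other gene pairs whose ratios would separate was not tested. With any 1 library left out, the Ldha to Ldhb difference lay between 0.28 and 0.35 and the Pfkm to Pfkl difference between -0.34 and -0.24. Leaving out a library cannot make separated groups overlap, so overlap says nothing further here. Fewer regroupings raise the smallest possible p to 0.0286 or 0.0357. The adjusted p was above the threshold (0.0714 or 0.0893) except without Fed 4, where it was 0.0476. With group medians in place of means both had an exact permutation p = 0.0476 (adjusted p = 0.119).

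**Figure D3:**
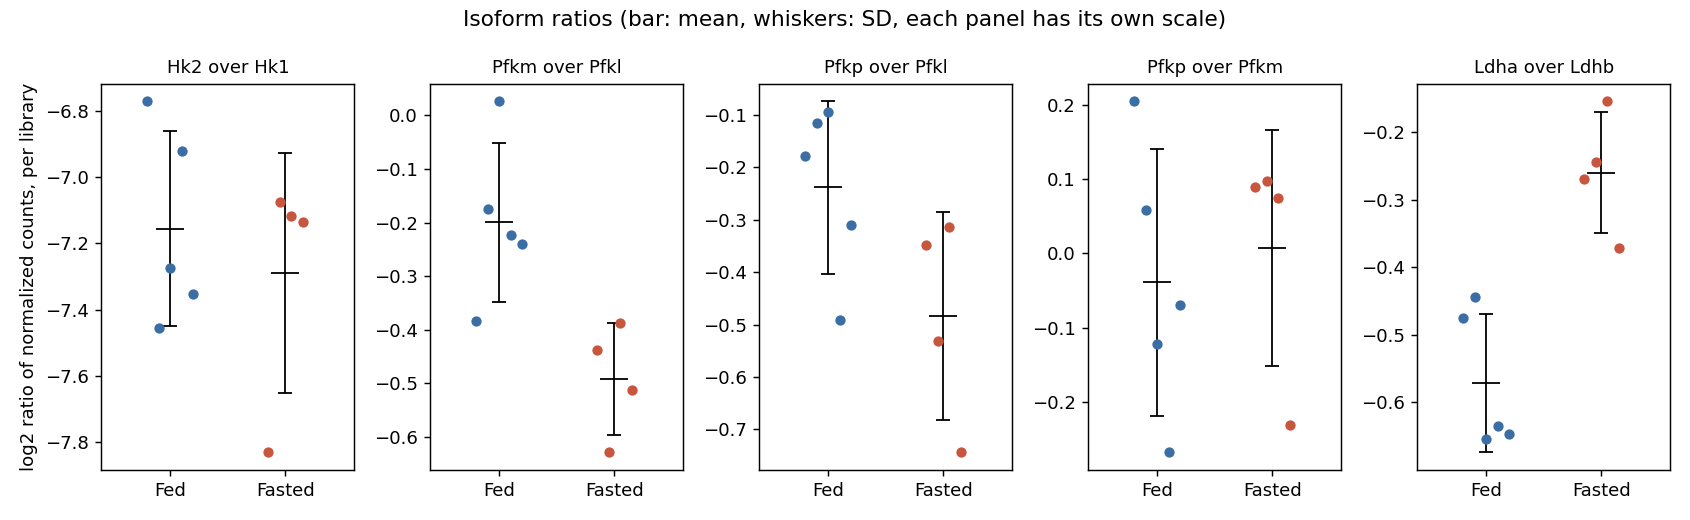
log2 ratio of normalized counts of the 5 isoform pairs in each of the 5 fed (blue) and 4 fasted (red) libraries, with the mean as a bar and the SD as whiskers; each panel has its own y axis, which does not start at 0. The groups separate for Pfkm over Pfkl, from -0.20 to -0.49, and for Ldha over Ldhb, from -0.57 to -0.26, and overlap for the other 3 pairs.

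Per kb of the longest coding transcript, Ldhb made up 67.4% ± 1.56 of the lactate dehydrogenase pair in fed and 62.5% ± 1.45 in fasted cortex, and 75.8% ± 1.31 and 71.6% ± 1.25 per kb of merged exons. Ldhb thus remained the more abundant subunit transcript in every library by either length, with its lowest share at 60.8%. The summed level per kb of the pair was 14242 ± 1243 in fed and 12137 ± 840 in fasted cortex. Ldhd, a mitochondrial enzyme that acts on D-lactate, had 17563 ± 2141 and 17447 ± 2853 normalized counts and a log2 change of -0.02.

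By level per kb of the longest coding transcript, the fed order was Ldhb (9597 ± 872), Aldoa (8898 ± 1032), Ldha (4645 ± 459), Gpi1 (2046 ± 57.6), Hk1 (825 ± 82.9), Pfkm (590 ± 31.7), Pfkl (523 ± 33.3), Pfkp (401 ± 50.7), Pgk1 (261 ± 37.1) and Hk2 (4.34 ± 0.76). The fed ranges of Ldhb and Aldoa overlapped, as did those of Pfkm and Pfkl, so those neighbours did not differ beyond their spread. In the fasted order both neighbours changed places: Aldoa, at 9414 ± 778, stood above Ldhb, at 7580 ± 456, with ranges that did not overlap, and Pfkl, at 555 ± 47.8, stood next to Pfkm, at 510 ± 28.2, with ranges that did. Per kb of merged exons Ldhb led Aldoa in both groups, at 7971 against 4735 in fed and 6296 against 5010 in fasted cortex, so that change of place holds for 1 length only. The order is also uncertain because the share of 50-base stretches found in other genes was 68.0% for Pgk1, 27.0% for Ldhb and 13.5% for Aldoa. How far this shifts the levels was not tested.

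The authors' deposited table of differential expression, made from the same libraries, lists 16.0% of genes with an adjusted p below 0.05. Of the 10 enzymes it has 2 of these. The authors' deposited table gives Ldhb a log2 change of -0.33 (SE 0.081, adjusted p = 0.000891) and Pfkm one of -0.20 (SE 0.069, adjusted p = 0.0268). For the other 8 the adjusted p in the authors' deposited table ran from 0.290 for Pfkp to 0.978 for Pgk1.

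Of the other 18 enzymes of the pathway 17 were tested; 2 rose and 1 fell, with a median log2 change of 0.20. Pklr, the liver- and kidney-type pyruvate kinase, rose from 764 ± 134 to 1212 ± 191 normalized counts (log2 change 0.67, SE 0.13, limma adjusted p = 0.0104), and Eno3, the muscle-type enolase, from 132.5 ± 19.2 to 197.6 ± 13.4 (0.58, SE 0.12, adjusted p = 0.0137). Pgam2, the muscle-type phosphoglycerate mutase, fell from 1038 ± 133 to 724 ± 48.1 (-0.51, SE 0.096, adjusted p = 0.0078). Each of these 3 genes had groups that did not overlap. Beside Pklr, whose values were 1092, 1019, 1302 and 1434 in Fasted 1 to 4, the hepatocyte marker Alb had 3623, 1848, 7186 and 7396, in the same order of libraries. In Fed 1 to 5 Pklr had 637, 750, 985, 684 and 761 and Alb 251, 10091, 4321, 2524 and 402, so the highest fed library differed, and the part of hepatocyte transcripts in the Pklr value was not tested. Pklr stayed past the threshold in all 22 alternatives, Eno3 was lost in 2 of them and Pgam2 in 1, the fed group of Fed 4 and 5.

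Pkm, the other pyruvate kinase gene, averaged 3766 ± 433 in fed and 3279 ± 158 in fasted cortex (log2 change -0.19, adjusted p = 0.18), and whether it differed in response from Pklr was not tested. Tpi1, the triose phosphate isomerase, had a log2 change of -0.23 (limma adjusted p = 0.13), and Gapdh, with its many copies, one of 0.42 (adjusted p = 0.10).

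**Figure D4:**
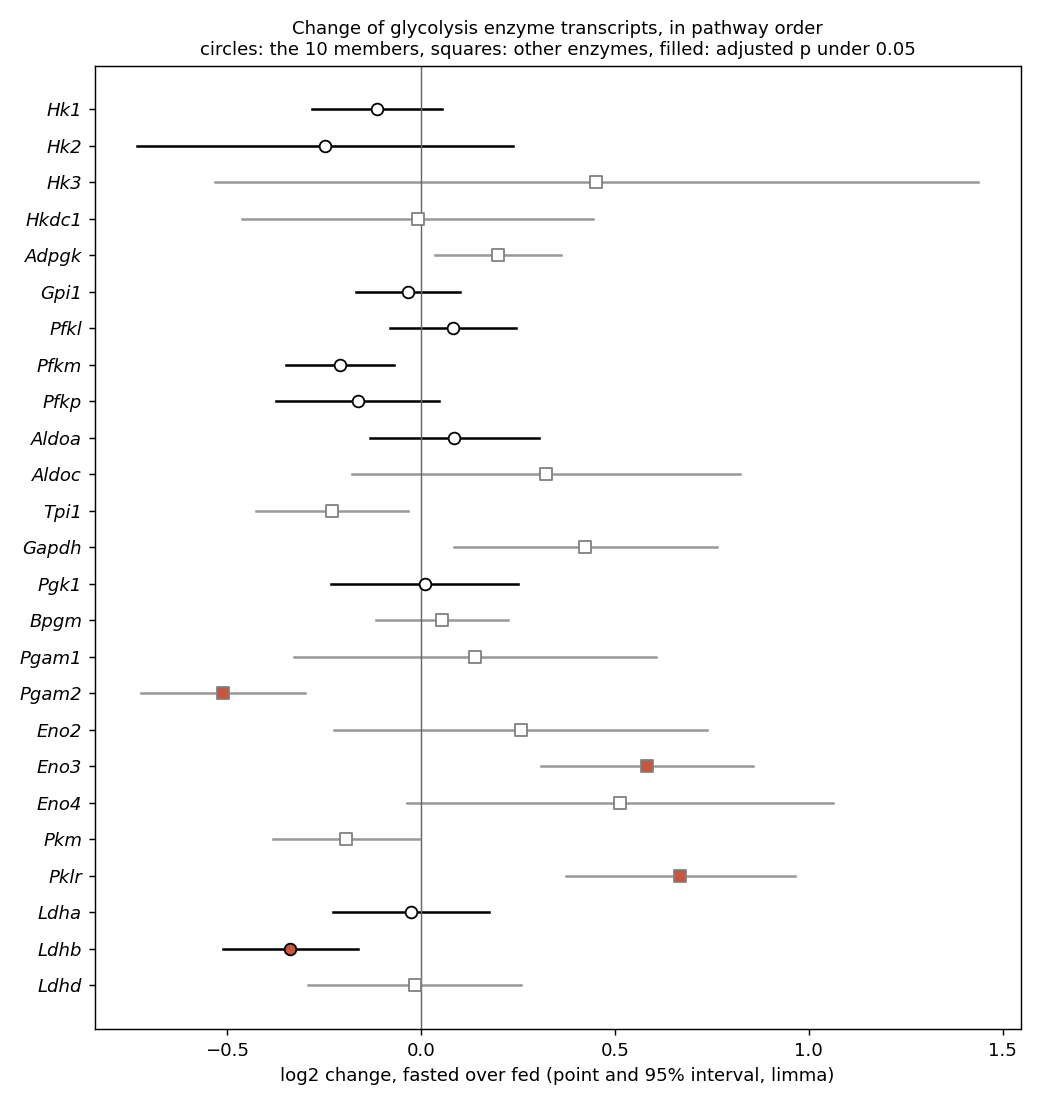
log2 change in fasted over fed cortex (x axis) with its 95% interval from limma for the 10 enzymes (circles) and other tested enzymes of glycolysis (squares), in pathway order from top to bottom; filled symbols passed the adjusted threshold. Ldhb (-0.34) and Pgam2 (-0.51) are the filled symbols left of 0, and Eno3 (0.58) and Pklr (0.67) those right of it.

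Phosphofructokinase is set largely by fructose 2,6-bisphosphate, which the bifunctional Pfkfb enzymes make and break down. Of 5 regulators, 4 Pfkfb genes and 9630033F20Rik, 1 was called higher and 1 lower. Pfkfb4 rose from 320 ± 23.2 to 422 ± 47.4 (log2 change 0.39, SE 0.096, limma adjusted p = 0.0243), and its call was lost in 6 of 22 alternatives. 9630033F20Rik itself, which RefSeq lists as a synonym of the fructose bisphosphatase gene Tigar, fell from a mean of 208 (range 188.0 to 224.9) to one of 163 (144.0 to 178.7), a log2 change of -0.36 (limma adjusted p = 0.0499), and was lost in 12. Pfkfb2 and Pfkfb3 did not pass, with log2 changes of 0.04 and 0.06.

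Enzymes that carry the opposite direction, from pyruvate to glucose, were called higher in 4 of 8 cases and lower in 0, with a median log2 change of 0.47. Pck1, phosphoenolpyruvate carboxykinase, had a log2 change of 2.13 (SE 0.30, limma adjusted p = 0.00166). Its lowest fed values, 30708 in Fed 1 and 26868 in Fed 5, and its highest fasted values, 246983 in Fasted 3 and 244364 in Fasted 4, came from the libraries that were also lowest among the fed and highest among the fasted for Alb. Fed 2, the highest of all libraries for Alb at 10091, had 62291 for Pck1. The lowest fasted Pck1 value was 158716, in Fasted 2, where Alb was 1848. The part of hepatocyte transcripts in these values was not tested. Pcx, pyruvate carboxylase, had a log2 change of 0.67 (limma adjusted p = 0.0045). The mitochondrial carboxykinase Pck2 and the glucose 6-phosphate carrier Slc37a4 each had 0.47, with adjusted p values of 0.0067 and 0.0414, and Slc37a4 was lost in 11 of 22 alternatives. Fbp1, the bisphosphatase that opposes phosphofructokinase, averaged 23608 ± 4726 in fed and 26284 ± 1948 in fasted cortex and did not pass (log2 change 0.18, adjusted p = 0.46).

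At the exit of the pathway, 13 genes of pyruvate entry into mitochondria held 2 called higher and 1 lower, with a median of 0.00. Pdk4 and Pdk1, kinases that switch off pyruvate dehydrogenase, rose by 4.59 on the log2 scale (limma adjusted p = 2.98e-05) and 0.75 (adjusted p = 0.00064), and Pdp2, a phosphatase that switches it on, fell from 2494 ± 257 to 1597 ± 56.2 normalized counts (log2 change -0.64, adjusted p = 0.00079). These 3 calls held in all 22 alternatives.

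In bulk cortex, fewer cells of a type and less RNA per cell cannot be told apart. All 10 proximal tubule markers were detected, led by Kap and Lrp2, with 1 (Slc34a1) called lower, and summed levels of 702898 to 1069110 in fed and 674961 to 898374 in fasted libraries. The 6 thick ascending limb markers, of a segment with much glycolysis, summed to 176525 to 223098 and 200351 to 256485, with 0 called. Of 6 intercalated cell markers 2 fell (Slc4a1 and Foxi1), with sums of 8707 to 10167 in fed and 8679 to 10002 in fasted libraries, and of 6 principal cell markers 0 changed. Fibroblast and smooth muscle markers had 2 of 5 higher (Pdgfra and Dcn), with sums of 4126 to 6725 and 6831 to 7676. Of the others Pdgfrb had a log2 change of 0.17, Myh11 of -0.07 and Acta2 of -0.37, and none passed. Adipocyte markers had 2 of 3 tested higher (Plin1 and Fabp4), with sums of 1017 to 2439 and 981 to 1570. Adipoq, Lep and Cfd were too low to test, averaging 0.79, 0.15 and 2.49 in fed and 0.92, 0 and 6.37 in fasted cortex. Plin1 reached 70.7 normalized counts in Fasted 2 and 1.92 to 10.7 in the other fasted libraries, and the third tested adipocyte marker, Car3, averaged 1242 in fed and 337 in fasted cortex without passing (log2 change -1.66, limma adjusted p = 0.062). The 6 hepatocyte markers had 0 called and a median log2 change of 1.01, with sums of 1798 to 16369 in fed and 4128 to 11050 in fasted libraries. Of the 4 distal convoluted tubule markers Trpm6 was called higher (log2 change 0.41), while the median over the 4 was -0.21. Slc12a3 (-0.06), Pvalb (-0.39) and Calb1 (-0.37) had changes below 0 and did not pass. Of the endothelial markers Pecam1 was higher and Kdr lower, and of the podocyte, macrophage and inner medulla and thin limb markers none was called. Skeletal muscle markers were near 0, summing to 11.9 to 30.1 in fed and 13.95 to 20.5 in fasted libraries. Of 5 red blood cell markers 4, all haemoglobin genes, were listed at 0 in every library. The remaining one, Alas2, averaged 413 normalized counts in fed and 383 in fasted cortex. The zeros therefore do not show that red blood cell transcripts were absent. The part of these differences in the Ldhb and Pfkm values was not tested.

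Each gene lies on the mouse genome GRCm38 (GENCODE M21) as follows. Ldhb spans chr6:142490249-142507957 on the minus strand and Ldha chr7:46841475-46855627 on the plus strand. Pfkm spans chr15:98092589-98132451 on the plus strand and overlaps Senp1, which runs the other way, and Gm26513. Pfkl spans chr10:77986947-78010083 and Pfkp chr13:6579768-6648777, both on the minus strand, and Pfkp overlaps Pitrm1 on the plus strand. Aldoa, on the minus strand, overlaps the protein-coding gene Fam57b on the plus strand. Whether the authors counted reads by strand is not given in the sources used here. Reads from any overlapping exons of Senp1, Pitrm1 or Fam57b could therefore not be told from those of Pfkm, Pfkp or Aldoa. Only whole gene spans were compared, and overlap of exons was not checked. Hk1, Hk2 and Gpi1 also overlap 1 gene each, and Pfkl, Pgk1, Ldha and Ldhb overlap none.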

How the data were processed

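Per the submitters' processing notes, reads were handled with FastQC, TopHat2 2.0.9, HTSeq 0.9.1 and DESeq2 (given as 3.5), and both mm10 and hg19 are named. The annotation, read length and strand setting are not given in the sources used here. The deposited sample columns are a signal in normalized counts, that is, counts divided by a size factor. All 161194 values above 0 came out as whole reads within 0.01 reads (100% of them). The deposited log2 changes and p-values are the authors' own.

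From these values, log2(value + 1) was fitted with limma 3.58.1 in R 4.3.3 with a trend, over the 15098 genes averaging 10 or more, with Benjamini-Hochberg adjustment, and the script was tested on simulated data. Isoform log2 ratios were tested by exact permutation. The alternatives were pseudocounts of 0.5 and 8, no filter, an average of 100 or more, TMM scaling, scaling without Rn45s, edgeR 4.0.16, DESeq2 1.42.0, voom with and without weights, and subsets of libraries.

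Named were all 10 enzymes, up to 4 called genes per list, any other tested glycolysis enzyme, and the 6 genes most like or most opposite to Ldhb. Enzymes and lists were chosen with earlier results of these data known. Values beyond that rule, for Fbp1, Pfkfb2, Pfkfb3, Eno1, Slc2a1 and the cell type markers, were chosen after their values were seen. Some enzymes of the tested lists are not reported here by name.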

Additional observations from a re-analysis of the deposited data

Results flagged for a closer look

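In 60 groups of 4 or 5 libraries (30 genes or ratios in each diet group), 3 held a library far from the rest of its group, and chance alone marks about 1 group in 20. The log2 ratio of Hk2 to Hk1 was -7.83 in Fasted 1, against -7.14 to -7.08 in the other fasted libraries. The log2 ratio of Pfkp to Pfkm was -0.23 in Fasted 4, against 0.07 to 0.10 in the other fasted libraries. Vegfa had 9164 normalized counts in Fed 3, against 6819 to 7376 in the other fed libraries.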

How the results depend on the processing

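With any 1 library left out, the count of changed genes ran from 861 (without Fasted 4) to 1959, the count of lower enzymes from 0 (without Fasted 1, 3 or 4) to 1, and that of higher enzymes stayed at 0, as it did under every alternative run. The changed genes numbered 2702 with quality weights, 1068 without Fed 3 and Fasted 1, and 357 with Fed 4 and 5 alone as fed. Lower enzymes were 2 with a mean of at least 100, DESeq2 or quality weights (Pfkm and Ldhb), 2 with Fed 1 to 3 (Pfkp and Ldhb), and 0 without Fed 3 and Fasted 1 or with Fed 4 and 5. The sign of Pgk1 reversed under Rn45s-free scaling (-0.0027), edgeR (-0.0056), DESeq2 (-0.0057), voom (-0.0092), quality weights (-0.070), without Fed 3 and Fasted 1 (-0.072) and with Fed 4 and 5 (-0.031), and ran from -0.082 to 0.064 without 1 library. Ldha reversed without Fed 3 and Fasted 1 (0.010) and with Fed 4 and 5 (0.12), and ran from -0.085 to 0.035 without 1 library; Gpi1 ran from -0.072 to 0.0027, and Pfkp reversed with Fed 4 and 5 (0.0043).

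By medians the isoform differences were 0.15 for Hk2 over Hk1 (reversed), -0.25 for Pfkm over Pfkl and 0.38 for Ldha over Ldhb. Without Fed 3 and Fasted 1 they were 0.016 (reversed), -0.25 and 0.29, and -0.0015 for Pfkp over Pfkm (reversed). With Fed 1 to 3 they were -0.31 for Pfkm over Pfkl, 0.26 for Ldha over Ldhb and -0.040 for Pfkp over Pfkm (reversed), and with Fed 4 and 5 they were -0.26 and 0.38 for the first 2 of these. Without 1 library the differences ran from -0.21 to 0.046 for Hk2 over Hk1, -0.34 to -0.24 for Pfkm over Pfkl, -0.31 to -0.16 for Pfkp over Pfkl, -0.011 to 0.13 for Pfkp over Pfkm, and 0.28 to 0.35 for Ldha over Ldhb. Subsets of libraries have fewer regroupings, which by construction raises the smallest p; the cause of the other shifts was not tested. Depth limits Hk2, with 15 to 40 reads, far more than the other enzymes. No paired analysis was possible because the labels state no pairing between fed and fasted libraries.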

Other observations

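Several glycolysis genes are known targets of hypoxia-inducible factors, and 17 such targets outside the pathway were read beside them. Of these, 2 were called higher and 1 lower, with a median log2 change of 0.14. Adm, the vasodilator peptide adrenomedullin, rose from 162 ± 30.7 to 304 ± 58.1 normalized counts (log2 change 0.91, SE 0.16, limma adjusted p = 0.0064), and Bnip3, a mitophagy receptor, from 1576 ± 229 to 2449 ± 349 (0.64, SE 0.12, adjusted p = 0.0086). Vegfa, the endothelial growth factor, fell from 7531 ± 934 to 5890 ± 264 (-0.35, SE 0.086, adjusted p = 0.0266), and its call was lost in 5 of 22 alternatives. Slc2a1, the glucose carrier GLUT1, averaged 1325 ± 182 and 1142 ± 39.0 and did not pass (-0.20, adjusted p = 0.23).

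Across the 9 libraries and 11034 genes averaging 100 or more, left after predicted genes, clone names and pseudogenes were set aside, the profiles most like that of Ldhb (Pearson r of log2 values) were those of Gipc2 (0.987), Cpped1 (0.984), Vegfa (0.980) and Txn2 (0.976). The most opposite were those of Ttc3 (-0.984) and Ppp2r3a (-0.982). All points share the same 9 libraries and the same fed and fasted groups, so these values only describe likeness.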
